A study of Mus musculus with 38 samples.

Results

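The genes described here are 10 named genes of the immediate early response and of mRNA decay: Fos, Fosb, Jun, Junb, Jund, Egr1, Atf3, Myc, Zfp36 and Zfp36l1. They were taken by the gene symbols of the array platform, which gave 15 of the 36607 probes on the array: 4 for Zfp36l1, 2 each for Fosb and Myc, and 1 for each other gene. The set was chosen by the 5-month ratios of Zfp36l1, which had been found higher in knockout livers through several probes, so its values at 5 months describe the choice and carry no test. By the labels and the design text of the series, 20 male mice in 4 groups of 5 were profiled to ask what the receptor c-Met does in liver carcinogenesis. The 5-month knockouts were Alb-Cre +/-; Met Fl/Fl mice (strain label 129SV/C57BL6) with a labelled age of 20 weeks, and the 5-month controls were Alb-Cre +/- mice (strain label B6129) of the same age. The 3-month knockouts and 3-month controls had the same genotypes and a labelled age of 12 weeks. All 20 mice, controls included, carried the Cre recombinase under the albumin promoter, which acts in hepatocytes, and all received N-nitrosodiethylamine (DEN), a liver carcinogen, as 1 dose of 10 micrograms per gram given on day 14 of life. The labelled ages are earlier than 3 and 5 months after that dose, so the time since DEN is not settled, and the strain labels of the genotypes differ.

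Immediate early genes are transcribed within minutes of a growth factor or stress signal without new protein synthesis. Fos and Jun proteins pair to form the transcription factor AP-1, Egr1 and Myc are further growth-responsive factors, and Atf3 is induced by stress. Their mRNAs are short-lived because AU-rich elements in them are bound by proteins such as Zfp36 (tristetraprolin) and its paralogue Zfp36l1, which recruit deadenylases. Hepatocyte growth factor, the ligand of c-Met, signals through kinases that induce these genes, and in liver they are known for their induction after partial hepatectomy.

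RefSeq promoter windows (build GRCm38.p6, 300 bases each, 250 of them before the annotated start) were used for 8 of the 10 genes, with Egr1 left out. The 250 bases before the start are shown for Zfp36l1, the member the set was built on, for its paralogue Zfp36 and for Fos, the prototype immediate early gene. Capitals mark matches to the motifs searched on both strands. These were the cAMP response element TGACGTCA and its core TGACG, the AP-1 motif TGANTCA, the TATA box TATAAA, the GC box GGGCGG, the EGR motif GCGTGGGCG, the E box CACGTG and the CArG box. The Zfp36l1 stretch lies at chr12:80113014-80113263 on the minus strand, the Zfp36 stretch at chr7:28379229-28379478 on the minus strand and the Fos stretch at chr12:85473640-85473889 on the plus strand.
Zfp36l1: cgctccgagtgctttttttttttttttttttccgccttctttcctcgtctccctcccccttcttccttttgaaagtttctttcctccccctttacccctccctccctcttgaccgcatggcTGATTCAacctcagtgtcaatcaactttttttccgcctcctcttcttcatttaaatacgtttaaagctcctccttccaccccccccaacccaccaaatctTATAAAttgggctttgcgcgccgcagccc
Zfp36: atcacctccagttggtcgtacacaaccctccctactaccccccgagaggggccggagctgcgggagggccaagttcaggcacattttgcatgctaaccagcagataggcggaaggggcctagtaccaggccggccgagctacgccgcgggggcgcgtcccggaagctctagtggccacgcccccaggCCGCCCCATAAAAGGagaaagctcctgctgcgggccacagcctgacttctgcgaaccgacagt
Fos: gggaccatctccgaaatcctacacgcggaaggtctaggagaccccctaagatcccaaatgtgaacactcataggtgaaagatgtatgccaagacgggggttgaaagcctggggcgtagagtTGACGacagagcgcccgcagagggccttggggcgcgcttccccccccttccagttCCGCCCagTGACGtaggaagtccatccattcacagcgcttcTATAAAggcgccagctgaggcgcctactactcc
In the Zfp36l1 window the letters held an AP-1 match from base -129 to -123 and a TATA box from -29 to -24. The Zfp36 window held neither of these but had a CArG box from -58 to -49, next to a GC box on the opposite strand. The Fos window held the core TGACG at -129 to -125 and at -66 to -62, a GC box on the minus strand and a TATA box at -33 to -28. Among all 32851 windows of the same length, 7.81% held an AP-1 match, 13.6% the TATA box, 20.8% the core TGACG, 35.7% the GC box and 1.63% the CArG box. The AP-1 motif and the CArG box are palindromic, so a match counts on both strands, and every full cAMP response element also holds the core. The gene body of Zfp36l1 runs from 80107760 to 80113013 on chromosome 12. Which part of the gene each probe reads is not known, as probe sequences were not used here.

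Each liver was hybridised with 2 dyes against a common reference, RNA pooled from 5 wild-type livers, and the values below are log2 ratios of liver over that reference, 1 per mouse. Both dye orientations were used for 18 mice, while 5-month knockout 2 has its liver in Cy3 alone and 5-month knockout 3 in Cy5 alone, which gives 38 arrays. The labels do not state which dye is the numerator: Cy5 over Cy3 was taken as likely, and if it is the other way round, every higher below reads lower and every lower higher. Runs of experiment numbers in the labels define 4 array series. Series A holds the 5 controls and knockouts 1 and 2 of 5 months, B the other 5-month knockouts, and C and D the 3-month mice of both genotypes, so age and series cannot be told apart. For 5-month control 4, the array with liver in Cy5 correlated with the 10 liver-in-Cy5 arrays of 3 months at r = -0.61 to -0.48, so its direction is less settled than that of the others, although it correlated at 0.70 with the other array of the same mouse after turning. Met, read by a single probe, averaged -0.78 ± 0.45 in knockouts against -0.73 ± 0.30 in controls of 5 months, and -0.39 ± 0.38 in knockouts against -0.81 ± 0.18 in controls of 3 months (SD, n = 5 each; limma adjusted p = 0.979 and 0.655). Where that probe lies relative to the deleted part of Met is not known, and liver holds cells that do not express the Cre, so it does not check the knockout labels.

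Zfp36l1, the RNA-binding decay factor, lay above the reference in every 5-month knockout and below it in every 5-month control by 3 of its 4 probes. Probe 1 read 0.42, 0.16, 0.66, 0.60 and 0.55 in 5-month knockouts, against -0.28, -0.43, -0.41, -1.25 and -0.62 in 5-month controls. Probe 2 read 0.76, 0.71, 0.73, 0.96 and 0.94 in knockouts, against -0.05, -0.17, -0.36, -0.51 and -0.18 in controls. Probe 3 read 0.26, 0.45, 0.51, 0.62 and 0.57 in knockouts, against -0.40, -0.45, -0.70, -1.33 and -0.58 in controls. The genotypes did not overlap in any of these 3 probes, and control 4 was the lowest mouse in each. The difference between knockouts and controls was 1.07 ± 0.20 for probe 1 (2.11-fold), 1.08 ± 0.21 for probe 2 (2.11-fold) and 1.18 ± 0.19 for probe 3 (2.26-fold; log2 fold change ± standard error from the 4-group limma fit). These values chose the gene, so they are a description; over the array, 3.92% of probes had genotypes that did not overlap at 5 months, 2.59% with knockouts higher, and 0.145% passed an adjusted p under 0.05 in the same contrast.

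The fourth Zfp36l1 probe did not follow the others. It averaged -0.29 in 5-month knockouts and -0.24 in 5-month controls, a difference of -0.04 ± 0.11, and -0.20 in 3-month knockouts and -0.26 in 3-month controls. Across the 20 mice the first 3 probes correlated with each other at r = 0.87 to 0.96, and the fourth with them at -0.14 to 0.17; the mice share the arrays and the reference. The fourth probe also had the smallest spread of the 4, with an SD within groups of 0.15 against 0.31 to 0.34. Which of the probes reads the transcript of liver was not tested.

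**Figure D1:**
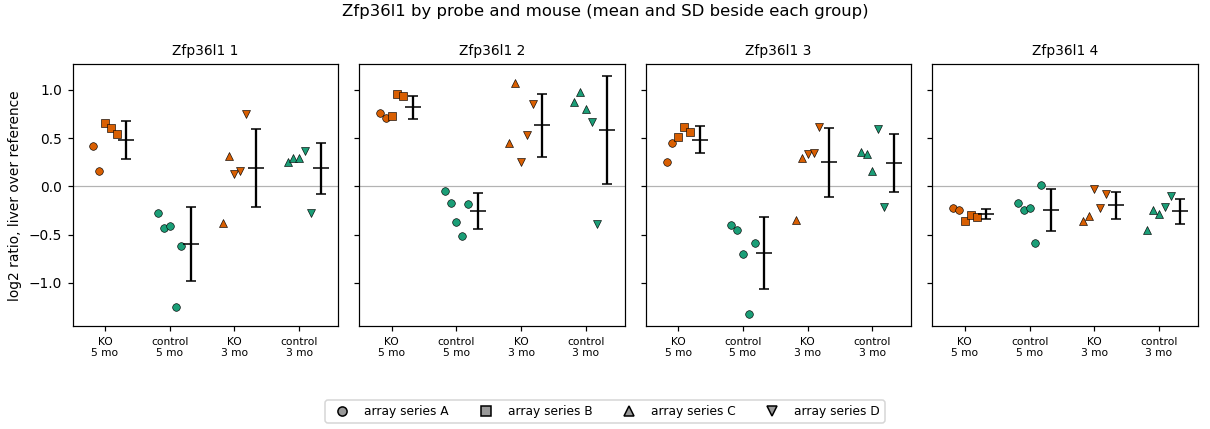
Log2 ratio of liver over reference (vertical axis) for the 4 Zfp36l1 probes, 1 point per mouse, with the mean and SD (n = 5) beside each group; the shape of a point is its array series. In probes 1 to 3 the 5-month controls have the lowest mean, while the other 3 groups overlap; in probe 4 all groups lie between -0.59 and 0.01.

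Averaged over the 3 probes that agree, Zfp36l1 was 0.59 ± 0.13 in knockouts against -0.52 ± 0.30 in controls of 5 months, and 0.36 ± 0.32 in knockouts against 0.34 ± 0.36 in controls of 3 months (SD, n = 5 each). These means are a description, with the mice of the 2 ages in different array series. The ranges of the 5-month knockouts, 3-month knockouts and 3-month controls overlapped, and the 3-month groups had nearly the same mean. Every 5-month control, from -1.03 to -0.24, was below every 3-month mouse but 1: 3-month control 5 was at -0.29. The 5-month controls all belong to array series A. The 2 knockouts of that series averaged 0.46 and its 5 controls -0.52, and the 3 knockouts of series B averaged 0.68. Within series A, with 2 knockouts and 5 controls, the knockout minus control difference was 0.89, 0.99 and 1.05 for probes 1, 2 and 3. The part of array series in the Zfp36l1 difference was not tested. With the sign of the Cy5-liver array of control 4 turned, the mean difference over all 4 probes was 0.61, against 0.82 as given, and the gene medians of the other 9 genes at 5 months ran from -0.15 for Egr1 to 0.49 for Myc.

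At 3 months, a comparison that the choice of genes did not use, no Zfp36l1 difference was detected. Probe 1 read -0.38, 0.32, 0.12, 0.16 and 0.75 in 3-month knockouts, against 0.26, 0.29, 0.29, 0.37 and -0.27 in 3-month controls. The groups overlapped, with a low mouse in each: knockout 1 and control 5. The differences were 0.01 ± 0.20, 0.05 ± 0.21, 0.00 ± 0.19 and 0.06 ± 0.11 for probes 1 to 4, with limma adjusted p between 0.947 and 0.998. The 95% interval for probe 1 ran from -0.41 to 0.43. The change of the genotype difference between ages was 1.07 ± 0.29, 1.03 ± 0.30 and 1.17 ± 0.27 for probes 1 to 3, given with no test because it uses the values that chose the gene.

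The dye swaps gave a second reading within each mouse. In the deposited values, which are ratios of the dyes, a liver signal has opposite signs on the 2 arrays of a mouse. The dye effect was not yet subtracted from these values. For Zfp36l1 the signs were opposite in 18, 17 and 17 of 18 mice for probes 1 to 3 and in 15 for probe 4. The 5-month difference was 1.16, 1.26 and 1.25 from the liver-in-Cy5 arrays alone and 1.03, 0.94 and 1.10 from the liver-in-Cy3 arrays alone. Fosb probe 2 was opposite in 18 mice, Fosb probe 1 and Egr1 in 16, Jun in 15, and Atf3 and Zfp36 in 13. Signs were opposite less often for Myc, in 11 mice for probe 1 and 10 for probe 2, for Jund in 9, for Fos in 6 and for Junb in 5. Over all probes, 39.1% to 46.4% were opposite in a 3-month mouse and 50.7% to 80.8% in a 5-month mouse. Fos also had the widest gap between the arrays of a mouse after turning, with a median of 0.90 against 0.13 for Zfp36l1 probe 1 and 0.39 over all probes, so its values below rest on arrays that disagree. If no array were turned, so that dye-swapped arrays cancel by construction, the Zfp36l1 differences at 5 months would be 0.10, 0.16 and 0.08.

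**Figure D2:**
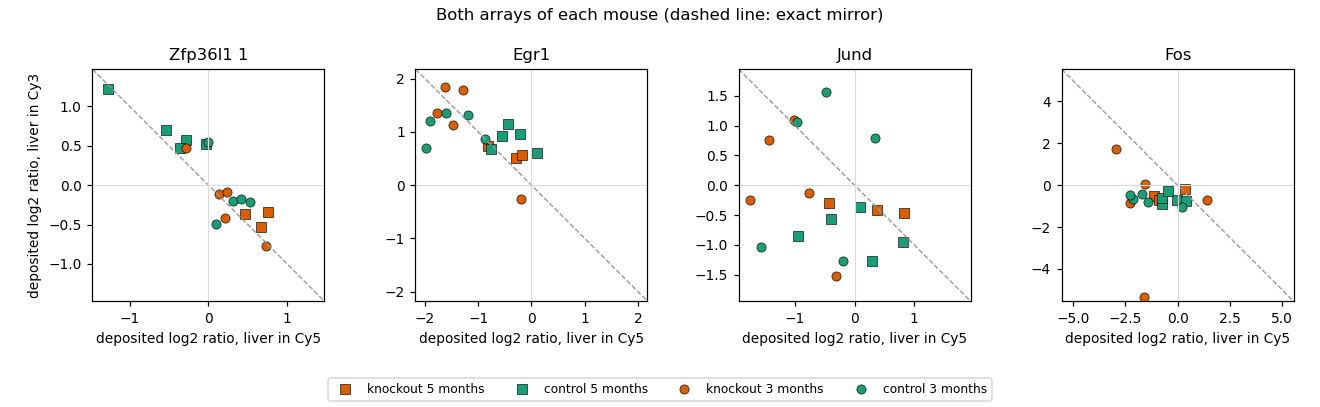
Deposited log2 ratio with the liver in Cy5 (horizontal axis) against that with the liver in Cy3 (vertical axis), 1 point per mouse with both arrays, for Zfp36l1 probe 1, Egr1, Jund and Fos; the dashed line is exact mirroring. Zfp36l1 follows the line with opposite signs in 18 of 18 mice, Egr1 does so in 16, Jund in 9 and Fos in 6.

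Markers of most liver cell types, hepatocytes included, had a higher median in 5-month knockouts than in 5-month controls, and those of neutrophils a lower one. The mean log2 ratio over 9 Kupffer cell (liver macrophage) genes ran from -0.20 to 0.46 in 5-month knockouts and from -0.47 to -0.00 in 5-month controls, and 7 of the 9 were higher in knockouts. Over 9 endothelial genes it ran from -0.07 to 0.08 in 5-month knockouts and from -0.35 to -0.15 in 5-month controls, without overlap, and 8 of the 9 were higher. Over 7 stellate cell genes it ran from -0.25 to -0.13 in 5-month knockouts and from -0.47 to -0.30 in 5-month controls, also without overlap. Of the 7, 4 were higher. Over all single probes 3.92% did not overlap in this comparison, and the share for means of lists was not computed. The 5-month controls all lie in array series A, unlike 3 of the 5-month knockouts. The median gene differed between 5-month knockouts and controls by 0.50 for Kupffer cells, 0.22 for endothelial cells, 0.04 for stellate cells and 0.18 for 10 hepatocyte genes, of which 9 were higher, against 0.01 over all probes. It differed by 0.20 for 4 cholangiocyte genes (3 higher), 0.11 for 7 lymphocyte genes (6 higher) and -0.08 for 6 neutrophil genes (1 higher, 5 lower). Dcn, the matrix proteoglycan decorin, was the only gene of these 7 lists with a probe past the threshold (0.55 ± 0.11, limma adjusted p = 0.0478). Over all probes 0.145% passed. Clec4f, a lectin of Kupffer cells, differed by 0.56 ± 0.15 (adjusted p = 0.177) and the urea cycle enzyme Cps1 of hepatocytes by 0.80 ± 0.24 (adjusted p = 0.257). Other markers of the same lists were lower in knockouts. Apob of hepatocytes differed by -0.47 ± 0.23 and Lyve1 of endothelial cells by -0.27 ± 0.19. Pdgfrb of stellate cells differed by -0.15 ± 0.16 and Marco of Kupffer cells by -0.095 ± 0.17. At 3 months the medians were -0.04 for Kupffer, -0.10 for endothelial, 0.10 for stellate cell and 0.05 for hepatocyte genes. Zfp36l1 is expressed in several cell types, fewer cells of a type and less RNA per cell cannot be told apart in whole liver, and the part of these markers in the Zfp36l1 result was not tested.

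**Figure D3:**
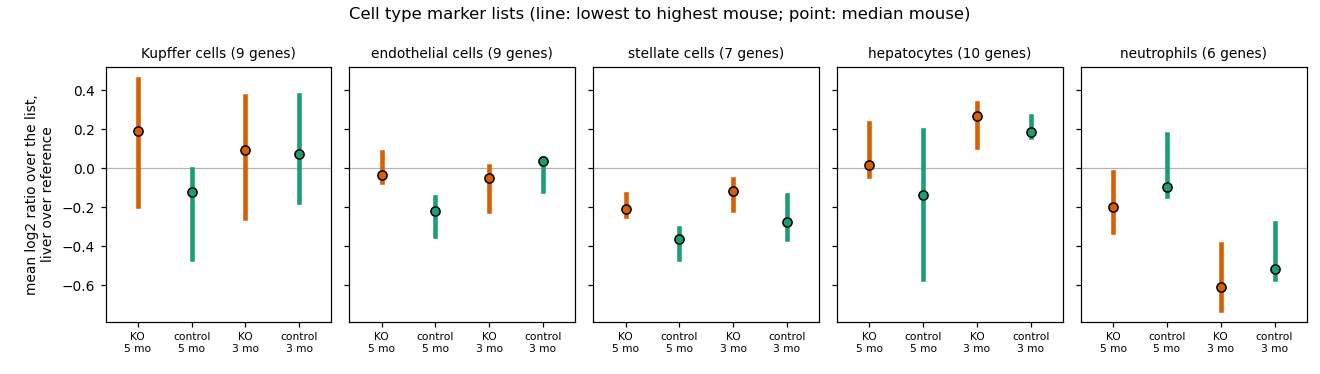
Mean log2 ratio of liver over reference over each marker list (vertical axis), from the lowest to the highest of 5 mice (line) with the median mouse (point), in each group. The 5-month controls lie below the 5-month knockouts without overlap for endothelial and stellate cell genes, and the ranges overlap for the other 3 lists. Of single probes over the array, 3.92% did not overlap between these 5-month groups.

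The genotypes overlapped at both ages in every probe of the other 9 genes, as they did in most probes of the array. At 3 months 0 of all 15 member probes passed an adjusted p under 0.05 in limma, and 0 passed at an unadjusted p under 0.05. The background was 0.0355% of all probes by the first rule and 7.96% by the second, so a count of 0 is near the background in a set of this size. The log2 fold changes ran from -0.21 for Junb to 0.31 for Myc probe 2, the smallest adjusted p was 0.767, and the genotypes overlapped in all 15 probes, where 1.31% of all probes did not overlap. At 5 months the 11 probes other than those of Zfp36l1 differed by -0.14 for Fos to 0.47 for Myc probe 2. Of these 11, 0 passed the adjusted threshold, where 0.145% of all probes did. Of the same probes 1 (Myc probe 1) had an unadjusted limma p under 0.05, as 10.5% of all probes did. In 0 of the 11 the genotypes did not overlap, where 3.92% of all probes did not. This contrast was also the one that chose the set, so nothing is read from these counts. By gene median, the 10 members centred on 0.17 at 5 months and 0.05 at 3 months, beside 0.01 and -0.02 over all probes. The 0.17 includes Zfp36l1, whose 5-month values chose the set. Without Zfp36l1 the centres were 0.11 at 5 months and 0.05 at 3 months. The widest 95% interval among the 15 probes at 3 months was that of Fos, from -0.89 to 1.31.

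**Figure D4:**
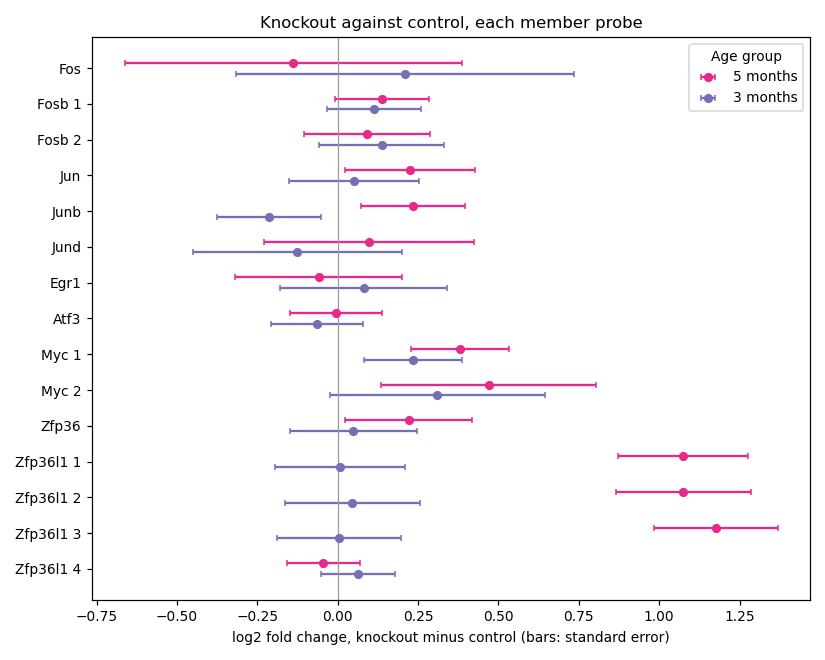
Log2 fold change of knockouts minus controls (horizontal axis) with its standard error, for each of the 15 probes at 5 and 3 months. Zfp36l1 probes 1 to 3 at 5 months lie between 1.07 and 1.18, and all other points lie between -0.21 and 0.47.

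Among the AP-1 genes, Fos, whose product binds DNA only with a Jun partner, varied most. It read 0.25, 0.00, 0.29, -0.31 and -0.07 in 5-month knockouts, against 0.09, -0.06, 0.34, 0.58 and -0.10 in 5-month controls. It read -2.32, -0.73, 1.87, -0.79 and 1.03 in 3-month knockouts, against -0.74, -0.91, -0.31, 0.63 and -0.65 in 3-month controls. The 3-month knockouts alone spanned the whole range, with animal 1 far below and animals 3 and 5 above the reference, and the SD within groups was 0.90 on the log2 scale. The genotypes overlapped at both ages.

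Fosb, a Fos relative, was below the reference by probe 2 in every 5-month mouse, at -0.65 to -0.31 in knockouts and -0.79 to -0.31 in controls. At 3 months that probe read -1.10 to 0.22 in knockouts and -1.07 to -0.63 in controls. Probe 1 lay nearer to 0, with group means from -0.27 to -0.04, and correlated with probe 2 at only r = 0.17 over the 20 mice. The genotypes overlapped by both probes at both ages.

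Jun, the main partner of Fos, lay slightly above the reference in every group. Its means were 0.44 ± 0.41 in knockouts against 0.22 ± 0.35 in controls of 5 months, and 0.30 ± 0.16 in knockouts against 0.25 ± 0.32 in controls of 3 months (SD, n = 5 each). The largest gap between these means was smaller than the spread of the 5-month mice. Junb, an AP-1 subunit that can oppose Jun, ran from -0.17 to -0.00 in 5-month knockouts and from -0.84 to 0.06 in 5-month controls. At 3 months it ran from -0.48 to 0.25 in knockouts and from -0.09 to 0.31 in controls. Its difference was 0.23 ± 0.16 at 5 months and -0.21 ± 0.16 at 3 months. In the deposited values, before the dye effect was subtracted, signs of the 2 arrays of a mouse were opposite in 5 of 18 mice. The median gap between the arrays of a mouse after turning was 0.21 for Junb, against 0.39 over all probes.

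Jund, the AP-1 subunit that resting cells express, was higher at 5 months by its mean in both genotypes. It read 0.40, 0.56, 0.86, -0.06 and 0.64 in 5-month knockouts, against -1.10, -1.05, 0.61, -0.32 and -0.75 in 3-month knockouts. In controls it read 0.78, 0.23, -0.05, 0.89 and 0.08 at 5 months, against -0.22, -1.01, -1.02, -0.27 and 0.53 at 3 months. A mouse of 3 months overlapped the 5-month range in each genotype: knockout 3 and control 5. The difference of 5-month minus 3-month mice was 1.00 ± 0.33 in knockouts and 0.78 ± 0.33 in controls, which did not pass the threshold (limma adjusted p = 0.0736 and 0.107).

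**Figure D5:**
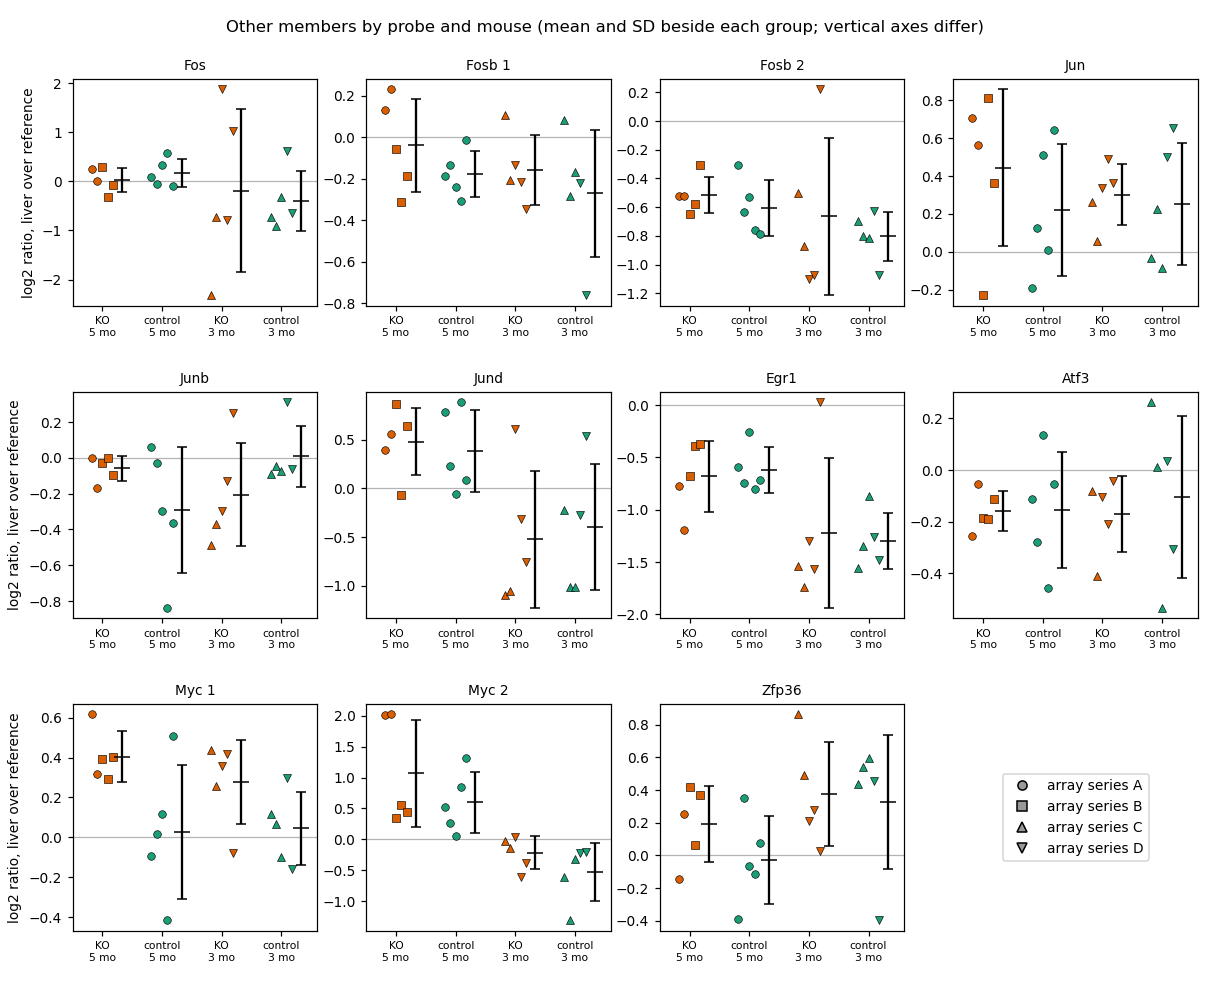
Log2 ratio of liver over reference (vertical axes, which differ) for the 11 probes of the other 9 genes, 1 point per mouse, with the mean and SD (n = 5) beside each group; the shape of a point is its array series. Genotypes overlap in every panel at each age; Myc probe 2 is highest in 5-month knockouts 1 and 2, and Egr1 lies below 0 in all mice but 1.

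Egr1, a zinc finger factor induced through serum response factor, was the member farthest below the reference. It read -0.77, -1.20, -0.67, -0.39 and -0.37 in 5-month knockouts, against -0.60, -0.74, -0.25, -0.80 and -0.72 in 5-month controls. It read -1.54, -1.73, -1.30, -1.56 and 0.03 in 3-month knockouts, against -1.55, -1.34, -0.87, -1.26 and -1.48 in 3-month controls. So 19 of 20 mice were below the pooled wild-type reference, and 3-month knockout 5 was level with it. Its 3-month means were -1.22 ± 0.72 in knockouts and -1.30 ± 0.27 in controls (SD, n = 5 each). Among all probes these means stood at the 0.669 and 0.372 percentile. The 5-month means, -0.68 ± 0.34 in knockouts and -0.62 ± 0.22 in controls, were nearer to 0. The 5-month controls all lay above the 3-month controls (0.68 ± 0.26, limma adjusted p = 0.0820), where 12.5% of all probes did not overlap. In knockouts the difference was 0.54 ± 0.26 (adjusted p = 0.198). Neither passed, and age lies in different array series. The genotype difference was -0.06 ± 0.26 at 5 months and 0.08 ± 0.26 at 3 months. The 3-month difference went opposite ways in the 2 array series: for Egr1 it was -0.38 within series C (2 knockouts, 3 controls) and 0.43 within series D (3 knockouts, 2 controls), and for Fos it was -0.87 within C and 0.72 within D.

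Atf3, a stress-induced member of the ATF family, stayed within -0.53 to 0.26 in all mice, and its genotype difference was -0.00 ± 0.14 at 5 months and -0.06 ± 0.14 at 3 months.

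Myc, the growth-promoting factor, gave different readings by its 2 probes. Probe 2 read 2.01, 2.02, 0.34, 0.55 and 0.44 in 5-month knockouts, against -0.02, -0.14, 0.04, -0.60 and -0.38 in 3-month knockouts. In controls it read 0.53, 0.26, 0.06, 0.85 and 1.31 at 5 months, against -0.61, -1.31, -0.32, -0.21 and -0.20 at 3 months. The ages did not overlap in either genotype, as for 6.89% of all probes in knockouts and 12.5% in controls, and knockouts 1 and 2 of 5 months, the mice of array series A, stood far above the rest. The difference of 5-month minus 3-month mice passed the threshold in knockouts (1.29 ± 0.33, limma adjusted p = 0.0377, higher than the 3-month mean in 5 of 5 mice) and in controls (1.13 ± 0.33, adjusted p = 0.0306, 5 of 5 mice). It was the 1 call among the 11 probes outside Zfp36l1 in each genotype, where 4.73% of all probes were called in knockouts and 14.7% in controls. Probe 1 differed between ages by 0.13 ± 0.15 in knockouts and -0.02 ± 0.15 in controls (adjusted p = 0.628 and 0.941), and the probes correlated at r = 0.32. From the liver-in-Cy3 arrays alone, probe 2 differed by 0.97 and 0.43 and neither passed (adjusted p = 0.394 and 0.455), and without 5-month knockout 1 or 2 the call in knockouts was lost. It was also lost without 3-month knockout 1, 2 or 4. Without the Cy5-liver array of 5-month control 4 the call in controls was lost (0.95, adjusted p = 0.0869), as it was with that array's sign turned, without 5-month control 1, 4 or 5, or without 3-month control 1 or 2; in each of these cases 0 of the 11 probes were called.

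Between genotypes, Myc probe 1 read 0.29 to 0.62 in 5-month knockouts and -0.42 to 0.51 in 5-month controls, a difference of 0.38 ± 0.15, and probe 2 differed by 0.47 ± 0.33. The median of both probes was 0.42 at 5 months and 0.93 within array series A. At 3 months the probes differed by 0.23 ± 0.15 and 0.31 ± 0.33 between knockouts and controls (adjusted p = 0.767 and 0.884).

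Zfp36, the paralogue of Zfp36l1 and also an AU-rich element binding decay factor, had overlapping genotypes at both ages. It read -0.15, 0.26, 0.42, 0.06 and 0.37 in 5-month knockouts, against -0.39, 0.35, -0.07, -0.11 and 0.08 in 5-month controls. The difference was 0.22 ± 0.20. At 3 months it ran from 0.03 to 0.86 in knockouts and from -0.40 to 0.60 in controls, a difference of 0.05 ± 0.20 (adjusted p = 0.981). In controls the 5-month mean was lower than the 3-month mean by 0.35 ± 0.20 (log2 fold change -0.35, adjusted p = 0.218), which did not pass.

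The wider immediate early class was read from 24 other genes with 41 probes, of which 0 passed in either genotype comparison, while 7 at 5 months and 4 at 3 months had an unadjusted p under 0.05. Over all probes the adjusted rule called 0.145% at 5 months and 0.0355% at 3 months, and the unadjusted rule 10.5% and 7.96%, so a count of 0 is the background in a list of this size. Their median gene differed by 0.09 at 5 months and -0.06 at 3 months. Dusp1, the phosphatase that switches off the kinases upstream of Fos, had the largest difference at 5 months, 1.42 ± 0.28, and missed the threshold (limma adjusted p = 0.0514). It read 0.54, 1.06, 1.23, -0.10 and 0.12 in 5-month knockouts, against -1.13, -0.71, -1.17, -0.71 and -0.53 in 5-month controls, without overlap. Over all probes 3.92% did not overlap in this comparison, and Dusp1 was picked as the largest of the 24 genes. At 3 months it read -1.28 to -0.26 in knockouts and -0.97 to 0.45 in controls. All 5-month knockouts lay above every 3-month knockout, and all 5-month controls lay within the range of the 3-month mice. The 5-month minus 3-month difference of Dusp1 passed in knockouts (1.25 ± 0.28, adjusted p = 0.0247) and was -0.36 ± 0.28 in controls (adjusted p = 0.385). Between the ages in knockouts, 6.89% of all probes did not overlap and 4.73% were called. With no array turned, the 5-month genotype difference of Dusp1 was -0.18. Klf10, a transforming growth factor response gene, differed by 0.75 ± 0.22 (adjusted p = 0.222), and the lowest of the class were Gadd45b, a stress sensor, at -0.84 ± 0.22 (adjusted p = 0.157) and Egr2 at -0.51 ± 0.20.

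The decay machinery downstream of Zfp36 proteins was read from further lists, against the same background: 0.145% and 0.0355% of all probes passed at 5 and 3 months, and 10.5% and 7.96% by the unadjusted rule. Of 44 genes of deadenylation, decapping and exosomal decay (72 probes), 0 passed at 5 or 3 months and 6 had an unadjusted p under 0.05 at each age, and their median gene differed by 0.04 and -0.00. Tob1, a gene of deadenylation, had the largest difference at 5 months (0.58 ± 0.20, limma adjusted p = 0.307), and Lsm7, of the decapping activator ring, the lowest (-0.40 ± 0.15). Among 14 other AU-rich element binding proteins (27 probes) 0 passed, and 1 probe at each age by the unadjusted rule, with medians of -0.02 and -0.03. Among 23 genes reported as targets of Zfp36 proteins in other systems (39 probes) 0 passed, against 3 at 5 months and 6 at 3 months unadjusted, with medians of -0.03 at 5 months and -0.10 at 3 months. At 5 months Mcl1, a survival factor, was the highest of these at 0.40 ± 0.14 (adjusted p = 0.321), and the chemokine gene Ccl3 the lowest at -0.60 ± 0.22. The 19 partners of AP-1 and Myc (31 probes) also gave 0 calls, against 5 and 3 unadjusted, with medians of 0.08 and -0.05.

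Between ages these lists held calls in both directions, as did the array at large. In knockouts 5 of the 44 decay genes (72 probes) had a called probe, 4 probes higher and 1 lower at 5 months. Tob1 was higher by 1.22 ± 0.20 (adjusted p = 0.00826) and the decapping factor gene Dcp1b by 2.05 ± 0.51 (adjusted p = 0.0322). In controls 7 of the 44 had a called probe and all 9 called probes were lower at 5 months, among them Exosc3 of the RNA exosome, which fell by 0.63 (SE 0.14, adjusted p = 0.00861). Of the 39 probes of the reported targets, 3 in knockouts and 4 in controls were called, each higher at 5 months. Pim1, a kinase gene, was higher by 0.85 ± 0.15 in knockouts (adjusted p = 0.0123) and Cyp7a1, the rate-limiting enzyme of bile acid synthesis, by 1.45 ± 0.42 in controls (adjusted p = 0.0274). Cyp7a1 differed by nearly as much in knockouts, 1.41 ± 0.42, and did not pass there (adjusted p = 0.0545). The share called over all probes was 3.99% higher and 0.743% lower in knockouts, and 7.41% higher and 7.25% lower in controls, and age lies in different array series here.

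Genes that varied with Zfp36l1 from mouse to mouse were read after removing each group's mean. Over the 20 mice the highest Pearson correlations with the mean of its 3 concordant probes were those of Gbf1 (r = 0.85), Man1a (0.84), Shc1 (0.84), Aire (0.84) and Olfr571 (0.84). For Fos they were Il1r1 (0.86), Ttc3 (0.84), Usp1 (0.84), Col14a1 (0.83) and Map3k2 (0.83). These are the highest values over all 26926 probes with 1 gene symbol, which share the arrays and the reference. The SD of Fos was 1.65 in 3-month knockouts and 0.25 to 0.61 in the other groups, so its correlations rest mainly on the 3-month knockouts. In 3-month knockout 3 the deposited Fos values were -5.34 with the liver in Cy3 and -1.59 with the liver in Cy5. Other probes of Shc1 and Aire reached 0.63 and -0.15, so the likeness of Aire was not seen by its other probe. For the genes most like Fos, the best other probe reached -0.08 for Il1r1, 0.32 for Usp1, 0.52 for Ttc3 and 0.77 for Map3k2, so that of Il1r1 was not seen by its other probe either. The 5 genes most like Zfp36l1 differed by -0.02 to 0.35 between 5-month knockouts and controls.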

How the data were processed

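RNA of 20 livers was measured on 38 arrays with 2 dyes. Per the series' design text, the authors dropped invalid features and scaled all arrays to the 50th percentile of median signal in mAdb. The deposited values are log2 ratios of the dyes; base 2 was read from their steps, since 270 of 304 frequent values matched ratios of small whole numbers in base 2, within 0.0015. The sources used here give neither the background handling nor the ratio's numerator. Per the labels' protocols, total RNA was prepared from snap-frozen liver on caesium chloride gradients.

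A dye effect per probe, estimated from the 18 mice that have both orientations, was first subtracted. Values were then turned so that liver stands over the reference, and the arrays of each mouse were averaged. In 5-month knockouts 2 and 3, with 1 array each, the dye effect was removed by this subtraction alone. No array was centred. All 36607 probes were fitted in limma 3.58.1 (R 4.3.3) with 4 groups and 1 spread per probe, with no filter, and p-values were adjusted by Benjamini-Hochberg over all probes; called means an adjusted p under 0.05. Probe names come from the platform annotation: 26926 probes had 1 symbol, 203 several and 9478 none. Members, lists and motifs were chosen with earlier results of these data known. All probes of the 10 genes are named; of each wider list, the genes called in a contrast or otherwise the 2 highest and 2 lowest by gene median, of which the text gives some; and the 5 named genes most like Zfp36l1 or Fos.

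Nothing says that same-numbered mice are paired, and same-numbered mice of both genotypes correlated at -0.18 to 0.17 after group means were removed, so numbers were not used as pairs. The mice are separate animals per the series' design text. Array medians ran from -0.65 to 0.09. The signal behind a ratio is not in the values, so the number of arrays limits the precision. The script was tested on simulated data. Alternatives were no turning, each dye orientation alone, no dye effect, centring, quantile normalisation, array series as a covariate or within series, only the groups compared, the methods' t-test, a replicate block, and leaving out mice or an array.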

Additional observations from a re-analysis of the deposited data

Results flagged for a closer look

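In each of the 15 probes and 4 groups, the highest and lowest of 5 mice were set against Dixon's 95% limit. Of 60 groups 5 held a mouse far from the rest; chance flags about 1 in 20 groups. Control 5 of 3 months was low in 3 of them: Zfp36l1 probe 1 read -0.27 there, with the nearest control at 0.26, Zfp36l1 probe 2 read -0.39 with the nearest at 0.67, and Zfp36 read -0.40 with the nearest at 0.44. Control 4 of 3 months was high for Junb, at 0.31 with the nearest control at -0.04. Knockout 5 of 3 months was high for Egr1, at 0.03 with the nearest knockout at -1.30.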

How the results depend on the processing

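The count of 0 member probes called between genotypes at 3 months held under every alternative run. The mean over the 4 Zfp36l1 probes at 5 months was 0.82. It was 0.060 with no array turned, where dye-swapped arrays cancel by construction, 1.11 over the 3 concordant probes alone, 0.61 with the sign of the liver-in-Cy5 array of control 4 turned, 0.82 with the replicate block, and 0.70 to 0.88 with a mouse left out. The turned sign and the 3 probes were chosen after seeing the data, as were the dye effect from 5-month mice alone (0.82) and leaving out both knockouts with a single array (0.85). The age counts outside Zfp36l1 were 1 in each genotype and rested on Myc probe 2. In knockouts the count was 0 with no array turned, from liver-in-Cy3 arrays alone, with no dye effect, with arrays centred, with only the groups compared, by the methods' t-test before and after adjustment and with the replicate block, and 2 from liver-in-Cy5 arrays alone. In controls it was 0 with no array turned, from liver-in-Cy3 arrays, with no dye effect, centred, quantile normalised, by the methods' t-test before adjustment (1 after adjustment), and with the array of control 4 left out or turned, and 2 from liver-in-Cy5 arrays and with only the groups compared. With a mouse left out the counts ran from 0 to 2 in knockouts and from 0 to 3 in controls; 5-month knockouts 1 and 2, 3-month knockouts 1, 2 and 4, 5-month controls 1, 4 and 5 and 3-month controls 1 and 2 each took the count to 0. The cause was not tested. Of 690 recomputed gene differences, 48 changed sign and 7 moved by more than the SD within groups. Many of the 690 could not move, so these counts do not measure robustness. Leaving out a mouse gave 400 of them, and a mouse of the other age leaves a difference unchanged. The replicate block, only the groups compared and no dye effect also repeated the main differences. With no array turned Fosb was -0.19 and Myc -0.14 at 5 months. The replicate block changed no other call. The lack of brightness values leaves dim probes unmarked.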
